A study of Caenorhabditis elegans with 6 samples.

Results

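The respiratory chain genes of Caenorhabditis elegans were followed in 2 mutant strains that differ by ptr-8. Members were taken by name or position from the deposited gene tables. The nuclear members carry the names nuo, cox, atp or ucr with a number, or are gas-1, cyc-1, isp-1, mev-1, sdha-1 or sdhb-1. The mitochondrial members are the rows placed on MtDNA. This gave 56 of 46245 listed genes, 20 nuclear and 36 mitochondrial. The mitochondrial rows are 12 protein-coding genes, 2 ribosomal RNA genes and 22 transfer RNA genes.

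A first strain carried ptr-8(mkc18), eat-2(ad465) and acs-20(tm3232), and is called the ptr-8 strain. What the mkc18 allele alters is not stated. It was set against a strain with eat-2(ad465) and acs-20(tm3232), called the control strain. Both strains thus share the eat-2 and acs-20 alleles, and no wild type is among these samples. Whole animals grown at 20 °C were collected at late L4, the end of the last larval stage, and each strain had 3 RNA-seq libraries. Nothing in the labels says that these came from separate cultures, so the spread behind each p-value may be technical. The eat-2 gene serves pharyngeal pumping and its mutants eat less, acs-20 makes a fatty acid activating enzyme, and ptr-8 a membrane protein related to patched.

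The respiratory chain moves electrons from NADH and succinate to oxygen and pumps protons, and ATP synthase uses the proton gradient to make ATP. Complexes I, III, IV and V mix subunits made from nuclear genes with a few made from mitochondrial DNA, whereas complex II is wholly nuclear. The worm mitochondrial genome is transcribed on 1 strand into long RNAs that are cut at the transfer RNAs between the genes. Mutants of gas-1, isp-1, mev-1 and nuo-6 are used to study oxidative stress and lifespan.

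Values are scaled FPKM, that is, the deposited fragment numbers per transcript length and per library total, divided by a further factor per library. Levels can therefore be compared between genes per unit length. Scaling factors ran from 0.868 to 1.33, the highest in replicate 2 of the ptr-8 strain. Genes at an FPKM of at least 1 numbered 14883 to 15461, and read depth is unknown. ptr-8 itself was at 4.52, 5.12 and 5.74 in the ptr-8 strain libraries, against 23.8, 23.5 and 17.996 in the control strain, with the strains far apart. Of the 56 members, 34 were tested, namely the 20 nuclear genes, the 12 mitochondrial protein genes and both ribosomal RNA genes. The 22 transfer RNA rows, 52 to 62 bp long, were listed at 0 in all 6 libraries. So were 99.6% of all loci under 200 bp, and these rows carry no information here. Differences are log2 fold changes, ptr-8 strain minus control strain, on log2(scaled FPKM + 1), and a gene counted as changed at a limma Benjamini-Hochberg adjusted p below 0.05 over all tested genes.

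No respiratory chain member passed the test for a change between the strains. Among all 15206 tested genes 345 changed, which is 2.27%, with 53 (0.349%) higher and 292 (1.92%) lower in the ptr-8 strain. At an unadjusted limma p below 0.05 the members numbered 1 of 20 nuclear and 2 of 14 mitochondrial genes, where the share over all tested genes was 20.7% (9.07% higher and 11.6% lower). The median log2 fold change was 0.10 over the nuclear members and 0.00 over the mitochondrial ones, against 0.01 over all tested genes. The 95% intervals of single nuclear members reached at most from -0.57 to 0.70. Those of mitochondrial members reached at most from -2.13 (ndfl-4) to 1.51 (MTCE.7), while that of nduo-1 ran from -0.50 to 0.28. The median SE was 0.25 over the mitochondrial members and 0.11 over the nuclear ones. A moderate difference would thus not have been detectable in the mitochondrial genes with wide intervals. In bulk samples, fewer cells of a type, fewer mitochondrial genomes per cell and less RNA per genome cannot be told apart.

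**Figure D1:**
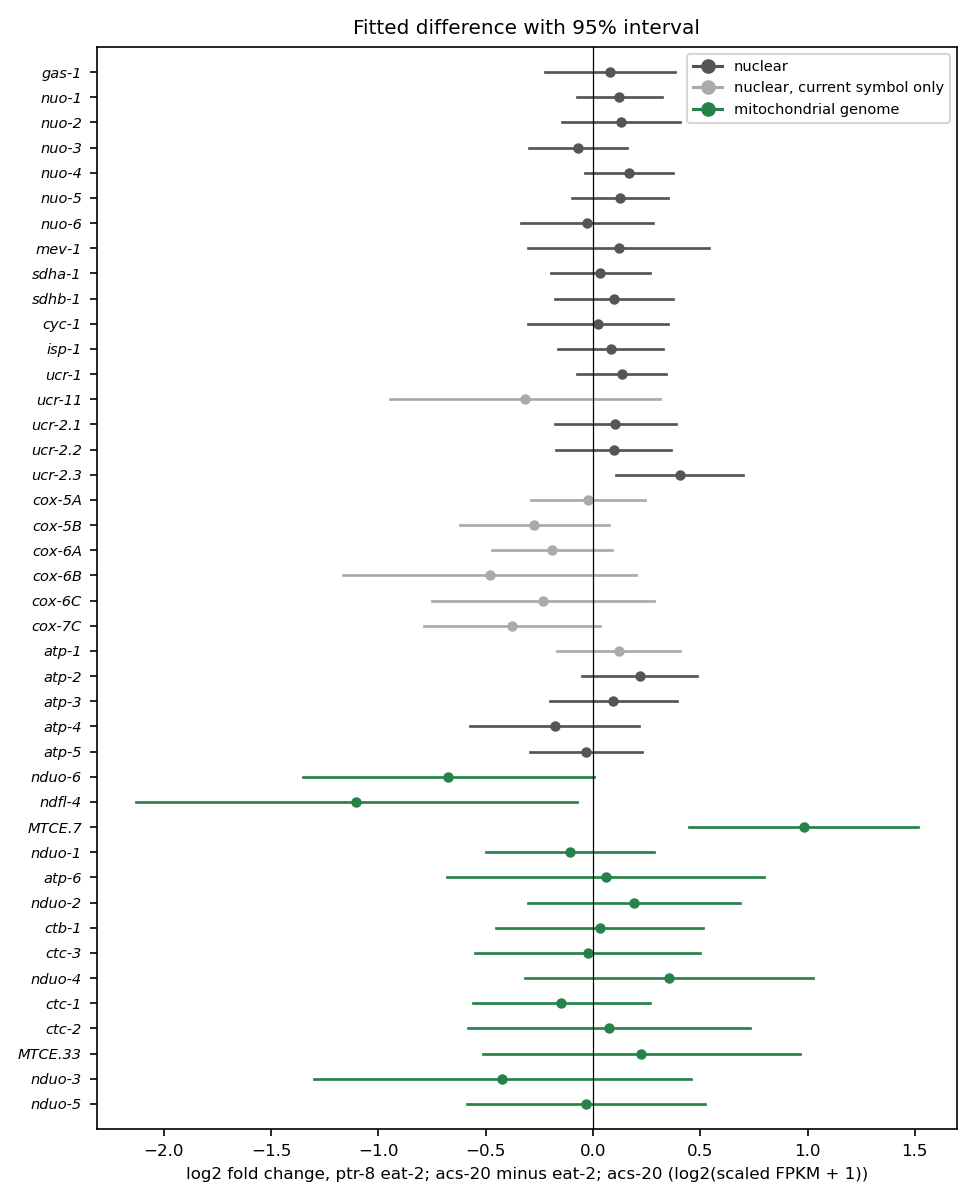
Fitted log2 fold change (ptr-8 strain minus control strain, x axis) with its 95% limma interval for 20 nuclear genes, 8 nuclear genes matched only under current symbols and 14 mitochondrial genes (rows). Intervals of nuclear genes are short and mostly span 0, while MTCE.7 at 0.98 and ndfl-4 at -1.104 lie farthest out with wide intervals.

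The nuclear members were abundant and steady. Their mean levels ran from 68.8 for sdha-1 to 1094 for atp-4, and the lowest of them lay above 81.5% of tested genes. The within-strain SD of log2 level had a median of 0.13 over the 20 genes, against 0.18 over the 2551 tested genes in the same range of level. It was 0.14 over 1597 tested genes at a mean of at least 50 with a longest transcript from 1000 nt to under 3000 nt. Low spread is therefore not particular to the members. Replicate 2 of the control strain was the highest library of its strain for 17 of the 20 genes and replicate 1 the lowest for 16. In the ptr-8 strain replicate 2 was highest for 12.

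In complex I, which takes electrons from NADH, 5 of 7 nuclear members had a positive log2 fold change and 2 a negative one, none past the test. nuo-4, an accessory subunit, was at 227, 239 and 213 in the ptr-8 strain, against 194, 206 and 204 in the control strain (log2 fold change 0.17, SE 0.08, limma adjusted p = 0.314). nuo-1, the subunit that binds NADH, was at 229, 242 and 229.8 in the ptr-8 strain, against 203, 223 and 217 (0.12, adjusted p = 0.435). For both genes the 3 ptr-8 strain libraries lay above the 3 others by a small margin. gas-1, a core subunit whose mutant is sensitive to anaesthetics and oxygen, was at 94.1, 103.8 and 107 in the ptr-8 strain, against 81.8, 106 and 102 in the control strain, with overlapping groups (0.08, 95% interval -0.23 to 0.38). nuo-5, a core iron-sulfur subunit, was the least abundant of the 7, at 80.6, 75.6 and 76.1 in the ptr-8 strain, against 66.0, 69.6 and 77.5 (0.12, adjusted p = 0.478). nuo-3, an accessory subunit and the most abundant, was at 492, 441 and 455 in the ptr-8 strain, against 455, 504 and 497 (-0.07). Both overlapped between strains, as did nuo-2, a core subunit, at 0.13 and nuo-6 at -0.03. The deposited interval of nuo-3 had a half-width of 11.6% to 73.1% of its FPKM, far wider than the median of 4.41% to 5.59% per library over the nuclear members, so its level is less certain than its replicates show. Reads of gas-1 may be shared with its close copy nduf-2.2.

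In complex II, which oxidises succinate, the strains overlapped for each of the 3 members. mev-1, the membrane anchor subunit whose mutant is sensitive to oxygen, was at 329, 502 and 389 in the ptr-8 strain, against 355, 409 and 345 in the control strain. Its groups overlapped widely (0.12, SE 0.17, adjusted p = 0.730). mev-1 lies beside ced-9 on the same strand in 1 operon, and the annotated loci overlap. sdhb-1, the iron-sulfur subunit, was at 232.5, 265 and 248 in the ptr-8 strain, against 213, 263 and 223 (0.10, adjusted p = 0.664). sdha-1, the flavoprotein, was at 69.5, 73.3 and 66.0 in the ptr-8 strain, against 61.97, 73.0 and 69.2 (0.03, 95% interval -0.20 to 0.27). Reads of sdha-1 may be shared with sdha-2, a close copy.

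Complex III passes electrons from ubiquinol to cytochrome c and held the nuclear member nearest to a call. ucr-2.3 (WBGene00020757, chromosome III, 879860 to 881507, plus strand) was at 119, 113 and 104.5 in the ptr-8 strain, against 97.0, 73.9 and 84.0 in the control strain. Each ptr-8 strain library was above each of the others, yet the gene did not pass (0.40, SE 0.12, unadjusted p = 0.0157, limma adjusted p = 0.156). Its adjusted p ran from 0.0635 to 0.565 over the alternatives. The other core subunit genes lay closer together. ucr-1 was at 242, 238 and 245 in the ptr-8 strain, against 205, 234 and 223 (0.13), and ucr-2.1 at 167, 196 and 171, against 153, 186 and 158 (0.10), with ucr-2.2 also at 0.10. The ucr-2 genes are similar in sequence, so reads may be split between them. Whether counting used strand is not stated, which matters for genes that overlap another protein-coding gene on the opposite strand. These are ucr-2.3 with zer-1, nuo-6 with cutl-6, ucr-2.2 with col-41, nuo-5 with C24B9.3 and cyc-1 with C54G4.7. The annotated loci of nuo-1, nuo-2, nuo-3 and atp-4, like that of mev-1, overlap a protein-coding gene on the same strand. For atp-4, alh-4 is among the overlapping genes. A strand setting would not separate such pairs, so the levels of these members may include reads of the other gene. isp-1, the Rieske iron-sulfur protein and the most abundant member here, was at 477, 507 and 472 in the ptr-8 strain, against 445, 505 and 427 (0.08). cyc-1, cytochrome c1, stood at 0.02.

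ATP synthase genes were the most abundant of the nuclear members, with mean levels of 882 to 1094. atp-2, the catalytic beta subunit, was at 1131, 1265 and 1113 in the ptr-8 strain, against 945, 1086 and 984 in the control strain. The groups did not overlap, and the gene did not pass (0.22, SE 0.11, limma adjusted p = 0.316). atp-4 was the lowest of the nuclear members by log2 fold change, at 1161, 833 and 1096 in the ptr-8 strain and 1109.9, 1291 and 1071 in the control strain (-0.18, adjusted p = 0.565). Its low value came from replicate 2 of the ptr-8 strain. atp-3, of the stalk, was at 858, 985 and 888 in the ptr-8 strain, against 787, 963 and 811 (0.10), and atp-5 stood at -0.03.

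Across the 20 nuclear members the strains did not overlap for 5 genes (nuo-1, nuo-4, ucr-1, ucr-2.3 and atp-2), each higher in the ptr-8 strain. That is 25% of them, and 27.8% of all tested genes did not overlap (13.9% higher and 13.9% lower).

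**Figure D2:**
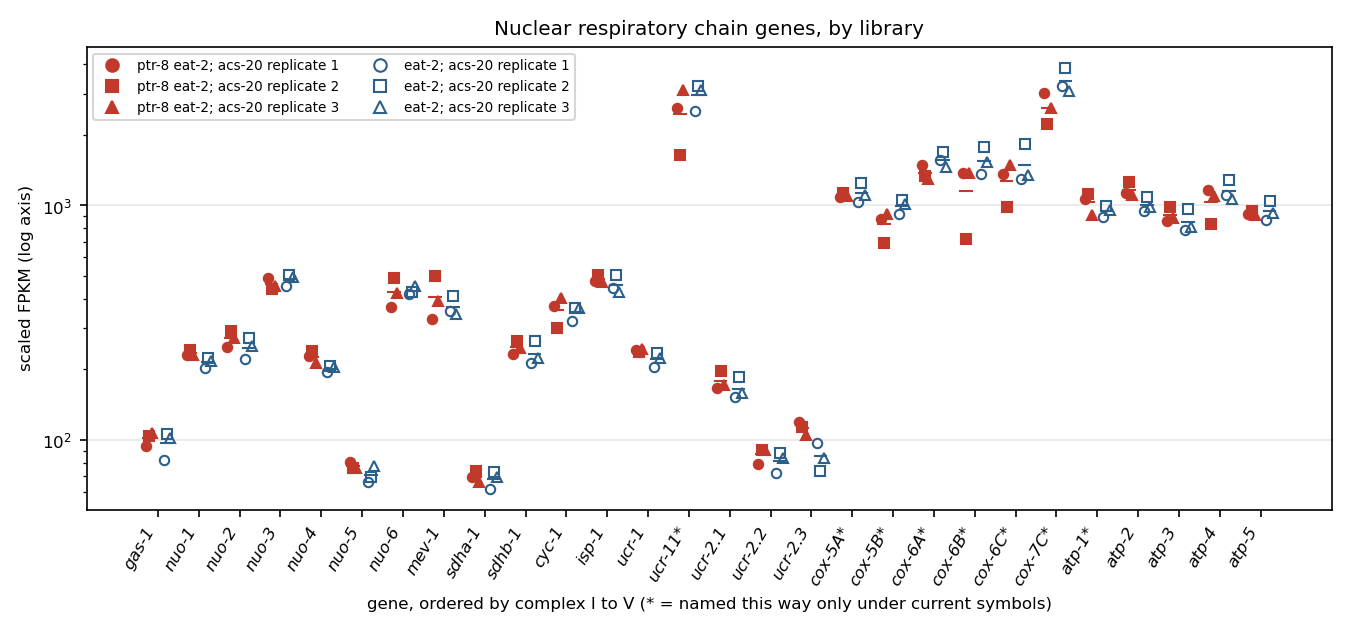
Scaled FPKM (log axis) of 28 nuclear respiratory chain genes in each of 6 libraries, with the ptr-8 strain filled and left of the control strain for each gene. Short lines are means of 3 libraries. Replicate 2 of the ptr-8 strain stands low for ucr-11, cox-6B, cox-6C and cox-7C.

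The tables name no gene cox with a number and letter, because they use older names. By current symbols 8 more genes would belong, 6 of cytochrome c oxidase (complex IV), with ucr-11 and atp-1. None of the 8 passed the test, nor reached an unadjusted p below 0.05, and 7 had a negative log2 fold change (median -0.25). cox-7C was at 3032, 2224 and 2597 in the ptr-8 strain, against 3239.7, 3860.1 and 3075 in the control strain (-0.38, SE 0.17, limma adjusted p = 0.270). It was the 1 gene of the 8 whose groups did not overlap, where 13.9% of all tested genes were lower without overlap. cox-6B was at 1371, 718 and 1378 in the ptr-8 strain, against 1361, 1770.3 and 1536, with replicate 2 of the ptr-8 strain far below the rest (-0.48, adjusted p = 0.375). ucr-11 showed the same replicate low, at 2596, 1639.9 and 3105, against 2534, 3235 and 3117 in the control strain (-0.32). atp-1, the alpha subunit of ATP synthase, stood at 0.12, and cox-5A at -0.02.

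Mitochondrial genes spanned a far wider range of level than the nuclear ones. Mean scaled FPKM ran from 20.3 for nduo-2 to 7960.4 for ctc-3, although all 14 genes lie on the same strand of a single small genome. The subunits of cytochrome c oxidase (ctc-1, ctc-2 and ctc-3), atp-6 of ATP synthase and ctb-1, cytochrome b of complex III, were at 1696 to 7960.4. The 7 genes of complex I were at 20.3 to 719. In the tables the row of nduo-2 (3389 to 4269 of MtDNA) overlaps that of the transfer RNA gene MTCE.15.

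The mitochondrial genes also varied more between libraries of 1 strain. Their within-strain SD of log2 level had a median of 0.35, against 0.13 for the nuclear members and 0.16 over the 7214 nuclear genes in the same range of level. They moved together: replicate 3 of the control strain was the highest of its strain for all 12 protein genes, and replicate 2 the lowest for 10. In the ptr-8 strain replicate 2 was the highest for 9 of 12 and replicate 3 the lowest for 9. In the control strain this order is not that of the nuclear members, for which its replicate 2 was mostly highest. In the ptr-8 strain replicate 2 was also the most often highest for the nuclear members, in 12 of them.

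ctc-3 was at 7679, 9292 and 6667 in the ptr-8 strain, against 7360.4, 6891 and 9873 in the control strain (-0.02, 95% interval -0.55 to 0.50). ctc-2 was at 5233, 8311 and 4803 in the ptr-8 strain, against 5433, 4701 and 7029.6 (0.07). In both genes replicate 2 was the highest ptr-8 strain library and replicate 3 the highest control library, and the groups overlapped. ctc-1 held within 1543 to 1657 in the ptr-8 strain and was at 1566, 1573 and 2247 in the control strain (-0.15). ctb-1 was at 2324, 2211 and 2395 in the ptr-8 strain, against 1866, 2059.6 and 3002 (0.03). Both genes lay closer together in the ptr-8 strain than in the control strain. For ctc-1 the SD was 57.3 in the ptr-8 strain and 391 in the control strain, and for ctb-1 93.0 and 608 in the same order. This order was not general among mitochondrial genes: the SD was 1913 and 1191 for ctc-2, and 1722 and 963 for atp-6. atp-6 was at 4289.9, 6676 and 3332 in the ptr-8 strain, against 4639.9, 3418 and 5317 (0.06). nduo-4 had the highest log2 fold change of the protein genes, at 382, 610.4 and 381 in the ptr-8 strain, against 319, 276 and 482 (0.36, SE 0.28, limma adjusted p = 0.502). nduo-1 was at 638, 779.7 and 652 in the ptr-8 strain, against 713, 636 and 894 (-0.11). Each of these overlapped between strains. nduo-5 was at 244, 357 and 231 in the ptr-8 strain, against 256, 236 and 358 (-0.03). nduo-2 was at 21.2, 25.9 and 17.8 in the ptr-8 strain, against 19.3, 14.6 and 22.9 (0.19), again with overlap.

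The 3 shortest mitochondrial protein genes had the lowest log2 fold changes. ndfl-4 (WBGene00010958, MtDNA, 549 to 783, plus strand) was at 252, 188 and 99.9 in the ptr-8 strain, against 431, 228 and 486 in the control strain. The groups overlapped and the gene did not pass (-1.104, SE 0.42, unadjusted p = 0.0390, limma adjusted p = 0.221). Its deposited intervals had half-widths of 29.1% to 51.8% of the FPKM. nduo-6, which ends where ndfl-4 begins, was at 219, 245 and 132 in the ptr-8 strain, against 339, 236 and 361 (-0.67, adjusted p = 0.243). nduo-3 was at 90.1, 148 and 62.04 in the ptr-8 strain, against 144, 88.5 and 158 in the control strain (-0.42).

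MTCE.7, a mitochondrial ribosomal RNA gene (WBGene00014454, MtDNA, 898 to 1593, plus strand), was the member nearest to a call. It was at 434, 523 and 293 in the ptr-8 strain, against 222, 186 and 209 in the control strain. The lowest ptr-8 strain library was above the highest of the others, a pattern of higher without overlap that 13.9% of tested genes showed. It missed the threshold (0.98, SE 0.22, unadjusted p = 0.00394, limma adjusted p = 0.0891), and its adjusted p ran from 0.0557 to 0.256 over the alternatives. MTCE.33, the other mitochondrial ribosomal RNA gene, was at 98.2, 102 and 56.4 in the ptr-8 strain, against 93.7, 51.5 and 72.7 (0.22, adjusted p = 0.709). MTCE.7 lies between ndfl-4 and nduo-1 on the genome. Its level divided by that of nduo-1 was 0.680, 0.671 and 0.450 in the ptr-8 strain, against 0.311, 0.292 and 0.234 in the control strain, a ratio chosen after its values were seen and not tested. The nuclear ribosomal RNA gene rrn-3.1 was at 2882, 1737 and 3103 in the ptr-8 strain, against 1584, 2035 and 2336. It averaged 2574 and 1985 in that order, the widest gap of the nuclear ribosomal RNA genes read. rrn-1.1 averaged 1566 and 1377, and rrn-1.2 averaged 1909 and 1656. Each of them overlapped between strains, and their part in the MTCE.7 difference was not tested.

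**Figure D3:**
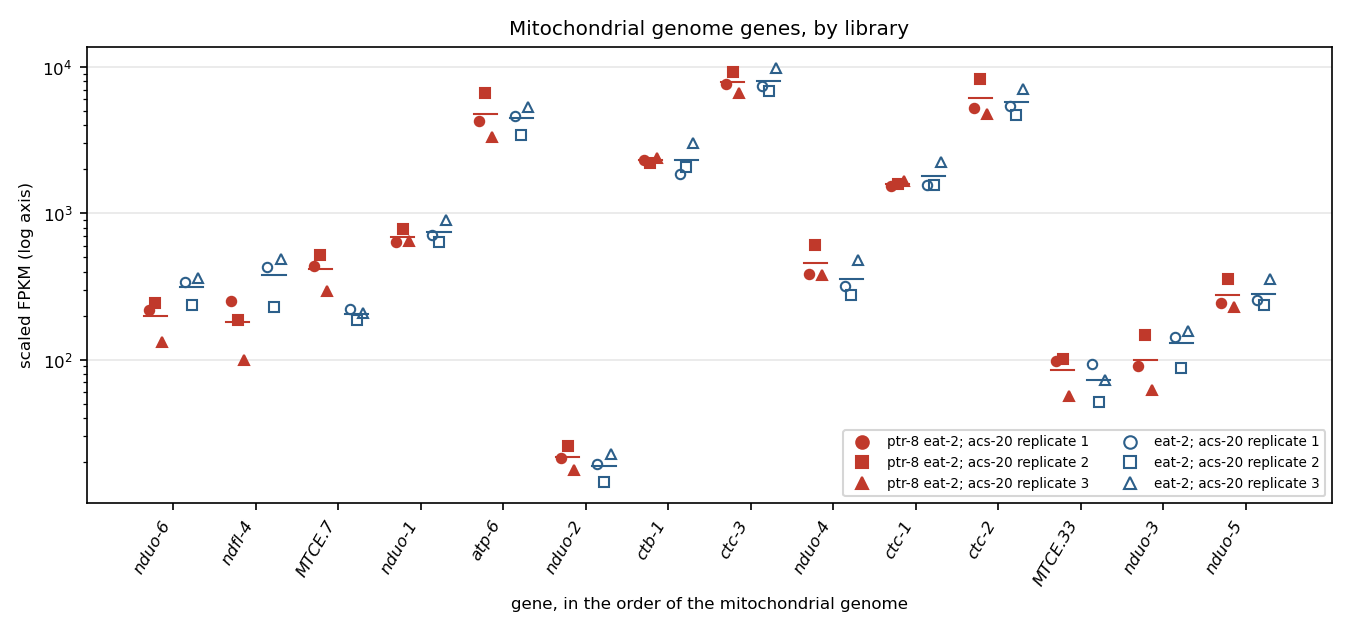
Scaled FPKM (log axis) of 14 mitochondrial genes in genome order, in each of 6 libraries, with the ptr-8 strain filled and left of the control strain for each gene. Short lines are means of 3 libraries. MTCE.7 is the gene whose strains do not overlap.

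Set against each other, the 2 genomes gave no strain difference beyond the spread of the libraries. The median log2 level of the 12 mitochondrial protein genes exceeded that of the 20 nuclear members in each of the 6 libraries. The excess was 1.01, 1.31 and 0.94 in the ptr-8 strain, against 1.35, 0.65 and 1.47 in the control strain. Its mean was 1.08 ± 0.20 in the ptr-8 strain and 1.16 ± 0.45 in the control strain (SD, n = 3 each), a difference of -0.07. This quantity within a library does not depend on the scaling factor beyond the pseudocount. The mitochondrial genes tested made up 1.22%, 1.80% and 1.101% of the summed FPKM of all tested genes in the ptr-8 strain, against 1.17%, 0.935% and 1.49%. The nuclear members made up 0.411%, 0.476% and 0.422%, against 0.363%, 0.381% and 0.370% in the control strain, with no overlap between strains. Their summed scaled FPKM was 7893, 8201 and 7973 in the ptr-8 strain, against 7274, 8395 and 7577, which does overlap. The separation of the shares thus depends also on the summed FPKM of all tested genes.

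**Figure D4:**
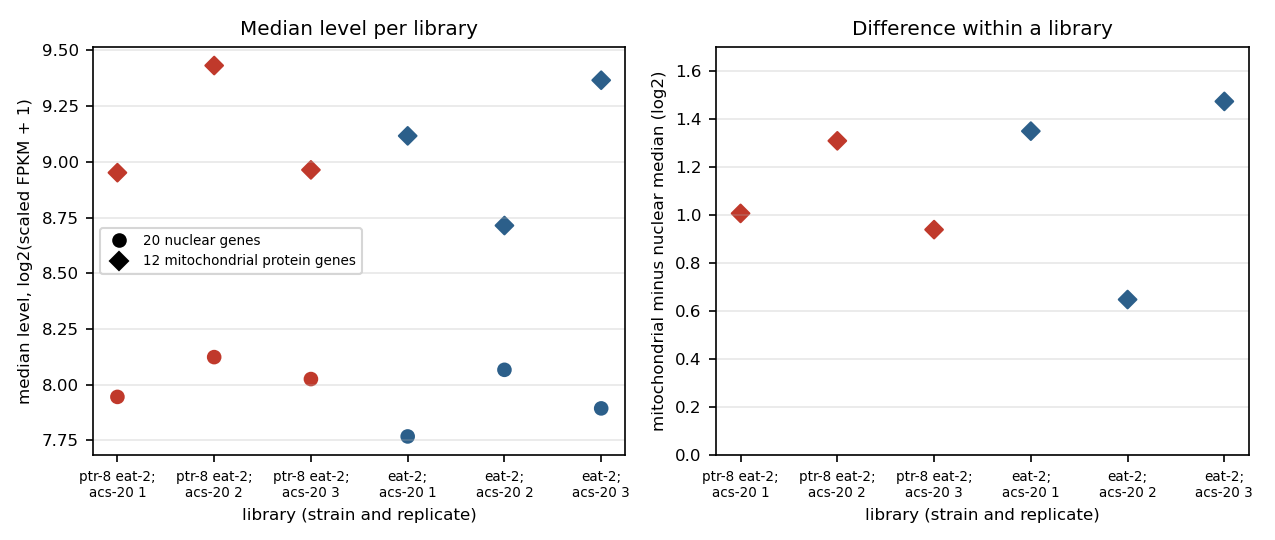
Left, median log2(scaled FPKM + 1) of 20 nuclear and 12 mitochondrial protein genes in each library. Right, the mitochondrial minus nuclear difference within each library. The ptr-8 strain libraries (red) lie at 0.94 to 1.31 and the control strain libraries (blue) at 0.65 to 1.47.

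Other subunits of the chain were read from lists chosen for the pathway. Of 21 complex I subunits outside the naming rule none passed, 7 with a positive and 14 with a negative log2 fold change (median -0.02). At an unadjusted p below 0.05, 1 was higher (nduf-2.2) and 3 were lower (ndub-7, ndub-3 and ndua-2). The shares over all tested genes were 9.07% higher and 11.6% lower. The lowest p was that of ndub-7, at 568, 408 and 528 in the ptr-8 strain, against 631, 735 and 768 (-0.51, limma adjusted p = 0.160). Of 8 subunits of complexes II to IV none passed (median -0.07), and the 1 gene with an unadjusted p below 0.05 was F45H10.2 (-0.50, limma adjusted p = 0.216). These 8 include cox-5A and cox-5B under their older names. Of 11 further ATP synthase genes 1 fell and none rose (median -0.23), where 1.92% of all tested genes fell and 0.349% rose. They are subunit genes and mai-2, which encodes an inhibitor of the enzyme. The gene that fell was asg-1, a subunit g gene of the membrane part (WBGene00000209, chromosome I, 8692946 to 8693469). It was at 866, 654 and 767 in the ptr-8 strain, against 1541, 1562 and 1524 in the control strain, with groups far apart (-1.03, SE 0.13, limma adjusted p = 0.0214). The call was lost without ptr-8 strain replicate 3 (limma adjusted p = 0.0952), and without replicate 2 (0.0880) or 3 (0.102) of the control strain. It was also lost with the replicate number as a block (0.0643) and on FPKM as deposited (0.0780), while the log2 fold change stayed within -1.12 and -0.92 over all alternatives. Its paralogue asg-2 was at 677, 629 and 769.9 in the ptr-8 strain, against 745, 955 and 777 (-0.25, adjusted p = 0.354), so reads exchanged between them are a limit on both. asb-1, a subunit b gene needed in the germline, stood at 0.31 (adjusted p = 0.177) and its paralogue asb-2 at -0.06. Germline markers had positive values for 8 of 9 genes in the same libraries, none past the test, and sums of 915 to 1023 in the ptr-8 strain and 709 to 858 in the control strain. Their part in the asb-1 difference was not tested.

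The differences of subunit genes went with transcript length. All nuclear subunits together, 66 genes with the inhibitor gene mai-2 counted among them, were grouped by their longest annotated transcript, after the values had been seen. The 13 with a transcript under 500 nt all had a negative log2 fold change (median -0.47, range -1.03 to -0.20), among them ucr-11, cox-6C, cox-7C, F45H10.2, asg-1 and asg-2, and asg-1 alone passed the test. Of 31 genes from 500 nt to under 1000 nt 10 were higher and 21 lower (median -0.03), and of 22 genes at 1000 nt or more 18 were higher and 4 lower (median 0.11). Across these 66 genes Spearman's rho of length and log2 fold change was 0.81, a description over genes that share the same 6 libraries. Over the 20 nuclear members alone, the shortest with a transcript of 542 nt, rho was 0.45. Over the 12 mitochondrial protein genes it was 0.44. The same class of length was shifted among all tested genes. Of 1477 genes under 500 nt 1019 were lower in the ptr-8 strain (median -0.28), and 64 passed the test in either direction. Genes from 1000 nt to under 3000 nt had a median of 0.03. The 13 short subunit genes had mean levels of at least 354. Among all tested genes under 500 nt at a mean level of at least 50, 497 of 655 were lower (median -0.34). Over 15107 tested genes with an annotated length rho was 0.16. The median deviation of genes under 500 nt from their mean over libraries was 0.06, -0.49 and -0.04 in the ptr-8 strain, against 0.24, 0.22 and 0.11 in the control strain, so replicate 2 of the ptr-8 strain stood lowest. Without that replicate the median of the 13 short subunit genes was -0.22 and that of all short genes -0.15. asg-1, with a transcript of 476 nt, was at -0.92 without it.

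**Figure D5:**
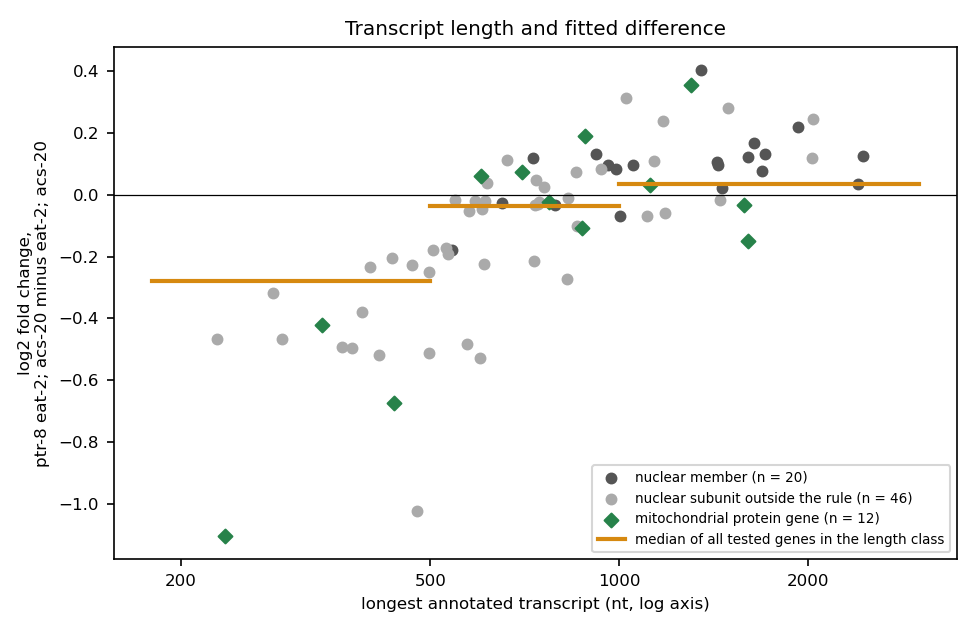
Log2 fold change (ptr-8 strain minus control strain) against the longest annotated transcript (nt, log axis) for 20 nuclear members, 46 other nuclear subunits (mai-2 counted among them) and 12 mitochondrial protein genes. Horizontal lines are medians of all tested genes in each length class (-0.28, -0.04 and 0.03), and the nuclear subunit genes under 500 nt lie between -1.03 and -0.20.

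Genes that serve the chain were read in the same way, and none of them passed the test. At an unadjusted p below 0.05, 5 were higher in these 7 lists and 1, mff-1, was lower (9.07% and 11.6% over all tested genes). Ubiquinone synthesis and cytochrome c had 10 tested genes (median 0.01), among them clk-1, a ubiquinone hydroxylase, at -0.02, and the lowest p was that of coq-8 (0.20, adjusted p = 0.254). The 12 assembly factors had a median of 0.10, with cox-15 of haem A synthesis at 75.6, 76.5 and 70.7 in the ptr-8 strain, against 60.4, 68.7 and 60.5 (0.23, adjusted p = 0.223). The 16 citric acid cycle genes had a median of 0.11, 12 positive and 4 negative, with sucg-1, of succinyl-CoA ligase, at 0.26 (adjusted p = 0.151). Of 5 nucleotide carrier and uncoupling genes 4 were tested (median 0.11), led by ucp-4 at 0.25 (adjusted p = 0.184). The 6 genes that keep or transcribe mitochondrial DNA had a median of 0.02. Among them tfbm-1 was at 17.6, 17.2 and 18.6 in the ptr-8 strain, against 14.8, 14.4 and 12.01 (0.35, adjusted p = 0.162), hmg-5, the mitochondrial DNA packaging factor, at 0.24 and rpom-1, the RNA polymerase, at -0.01. The 11 genes of the mitochondrial unfolded protein response and proteases had a median of 0.05. hsp-6, the chaperone used as its reporter, was at 188, 177 and 169 in the ptr-8 strain, against 161, 155 and 145 (0.21, limma adjusted p = 0.243), and atfs-1, its transcription factor, at 0.05. The 10 genes of fission, fusion and mitophagy had a median of 0.09, and mff-1 had the lowest p (-0.23, adjusted p = 0.206).

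Markers of tissues and stage were read beside these results. Body-wall muscle, rich in mitochondria, had summed marker levels of 7165 to 8958 in the ptr-8 strain and 7301 to 8999 in the control strain, with 0 of 8 genes changed. Pharynx and neuron markers likewise had no changed gene (0 of 4 and 0 of 5). Yolk genes, markers of adulthood made in the intestine, summed to 1155 to 1412 in the ptr-8 strain and 96.3 to 545 in the control strain, with 2 of 5 changed, both higher. Of 4 adult-stage collagens none passed, with a median log2 fold change of 1.66 and 2 higher at an unadjusted p below 0.05. col-19 averaged 727 in the ptr-8 strain and 238 in the control strain (1.92), with col-62 at 1.702 and col-7 at 1.61, whereas col-63 averaged 922 and 1086 in that order (-0.22) and made up much of the list's sum of 1769 to 2162 in the ptr-8 strain and 1397 to 1591 in the control strain. Oocyte markers summed to 286 to 399 in the ptr-8 strain and 126 to 235.5 in the control strain, with 0 of 7 past the test and 6 higher at an unadjusted p below 0.05 (median 0.81). Sperm markers had 0 of 6 past the test, all 6 with a positive log2 fold change (median 0.41) and 1 higher at an unadjusted p below 0.05. Of 5 intestinal markers asp-1 alone passed and was lower (-0.88, limma adjusted p = 0.0382), while ges-1 (0.28) and cpr-1 (0.29) were higher at an unadjusted p below 0.05. Over all tested genes 0.349% passed the test as higher and 1.92% as lower. At an unadjusted limma p below 0.05 the shares were 9.07% higher and 11.6% lower. No defining marker was at 0 in all libraries. The part of these tissue and stage markers in the values above was not tested.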

How the data were processed

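Each library has 1 gene table with FPKM and its bounds in the layout of Cufflinks, deposited by the authors, per the file headers. FastQC 0.11.5, TopHat2, HTSeq and DESeq2 are listed without a role in the submitters' processing notes. Genome build, strand setting, fragment size, how RNA was selected and read depth are not stated, so no interval from counts could be given. All 56 members matched an identifier of the Ensembl annotation of WBcel235, the source of strand and transcript length. The 36 mitochondrial rows had equal start and end there. No nuclear member did, with a start or end up to 1068 bp apart, so their gene models may differ. cox-6B, outside the rule, starts at 2786117 as deposited and at 2699663 in the annotation. Its annotated locus overlaps that of nduc-2 on the same strand. Positions are those of the files, with starts raised by 1. FPKM was scaled per library by trimmed means of log ratios (trimming 30% by ratio and 5% by level). Tested genes reached 1 scaled FPKM in 3 or more libraries at a locus of 200 bp or longer, and 10 genes that the files mark FAIL were left out, none a member. limma 3.58.1 (R 4.3.3, with a mean-variance trend) used log2(scaled FPKM + 1) and strain as the only term, and its code was tested on simulated data. The alternatives were other scalings, no filter, another pseudocount, a replicate block and leaving out each library. The genes named are all tested members and, in each list, the called genes or else the gene of lowest p. Genes named after their values were seen are the other short subunit genes, nduf-2.2, sdha-2, asg-2, asb-1, asb-2, clk-1, hmg-5, rpom-1, atfs-1 and mai-2. So are rrn-1.1, rrn-1.2, rrn-3.1, the collagen and intestinal marker genes and genes overlapping a member or cox-6B. Members, lists and tests were chosen with earlier results of these data known. No sequences were used here.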

Additional observations from a re-analysis of the deposited data

How the results depend on the processing

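No nuclear or mitochondrial member passed under any alternative run (other scalings, FPKM as deposited, no filter, pseudocount 0.1, a replicate block, 1 library left out). The number of changed genes over all tested was 345. It was 143 with the replicate number as a block, and 62 to 674 with 1 library left out, lowest without control strain replicate 3 and highest without its replicate 1. The numbers were not taken as pairs, since the labels do not say that a number marks a shared culture, day or batch. Deviations of same-numbered libraries of the strains had correlations of 0.25, 0.05 and 0.03. Those of differently numbered libraries ran from -0.20 to 0.15. On FPKM as deposited the median of all genes was 0.10 and that of the nuclear members 0.20. With 1 library left out the nuclear median ran from 0.04 to 0.15, the mitochondrial median from -0.16 to 0.17 and the mitochondrial minus nuclear difference from -0.33 to 0.09, so both of these took either sign. The sign changed in 13 of 240 pairs of nuclear member and alternative and in 15 of 168 for mitochondrial members. asg-1 lost its call in 5 alternatives, among them the block (adjusted p = 0.0643).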
